A study of Mus musculus with 2 samples.

Results

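The microRNAs described here are the 69 genes of the Mir297, Mir466, Mir467 and Mir669 name groups, out of 1973 microRNA genes counted in limb tissue of mouse embryos. Members are the genes whose GENCODE M21 symbol begins with 1 of these 4 stems, a rule that uses no measured value but was proposed with earlier results of these data known. By position, 59 members lay inside an intron of Sfmbt2 on chromosome 2 (positions are in GRCm38) and 10 lay outside it on 7 chromosomes. The study profiled small RNA with inserts under 30 nucleotides in whole limbs of B6NCrl embryos at embryonic day 14.5. It held 1 group of 2 samples, labelled biological replicates 1 and 2, each from 4 limbs, and the labels named no treatment and no altered allele. Both carried the same donor label and a sex given as pooled, so the number of embryos behind a sample was not settled by the labels, and the spread between the samples may be partly technical. There was no contrast between conditions, so the data give the level of each copy, the order of the copies and the difference between the 2 libraries.

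Sfmbt2 encodes a Polycomb-type protein, and in the mouse the gene is imprinted, with expression from the paternal copy in extraembryonic tissue. One of its introns carries a large array of microRNA hairpins that arose by repeated duplication in rodents, and the array is known mainly from placenta and embryonic stem cells. A hairpin in an intron is cut from the host transcript by Drosha and then by Dicer, and the mature strand pairs with target mRNAs chiefly through its seed, bases 2 to 8. Duplicated hairpins raise a counting problem, because a read that aligns equally well to several copies cannot be placed on 1 of them.

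Mature sequences for 8 of the 69 members were held by the RefSeq table (GRCm38.p6), all for copies outside the Sfmbt2 intron. They are printed because they show the simple repeat letters of the family; capitals mark the seed.
mmu-miR-466q: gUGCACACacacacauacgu
mmu-miR-466i-3p: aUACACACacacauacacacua
mmu-miR-467f: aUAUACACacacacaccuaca
mmu-miR-467g: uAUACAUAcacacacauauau
mmu-miR-466k: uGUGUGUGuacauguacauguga
mmu-miR-466j: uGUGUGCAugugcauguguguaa
mmu-miR-467h: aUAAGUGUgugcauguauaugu
mmu-miR-669n: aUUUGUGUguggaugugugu
These 8 had 8 different seeds. Only the seed of mmu-miR-467h recurred in the table, in mmu-miR-668-5p. The letters ACACAC stood in 4 of the 8 and the letters GUGUGU, their reverse complement, in the other 4, read on the mature strand. Over all 1738 mature sequences of the table, 1.61% held either. The longer forms GTGTGTGT or ACACACAC, read on the precursor strand, stood in 52 of the 69 member precursors (75.4%) and in 149 of 1825 precursors of other microRNA genes (8.16%). They stood in 43 of 59 precursors inside the intron and in 9 of 10 outside. Among the detected members described next, 7 of 10 held them, so the repeat letters were found in members with and without reads.

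The family as a whole reached a moderate level in the limb, and nearly all of its counted reads came from a few copies. Reads with several alignments were given to no gene, so levels here and below hold reads with a single alignment only. Levels are given in counts per 1e+06 (CPM), own-strand counts scaled to the library sum over all microRNA genes, as mean ± SD with n = 2, and are not divided by length. The family summed to 4262 CPM in replicate 1 and 4468 CPM in replicate 2, a mean of 4365 ± 145 CPM or 0.436% ± 0.0145 of the microRNA reads. With all reads of several alignments, of any source, added to the total and none to the family, the mean was 2660 CPM. Detection was taken as at least 10 counts in both libraries. By this rule 10 of 69 members (14.5%) were detected, beside 16.9% of all microRNA genes. A further 15 members had at least 1 count without reaching it, and 44 members (63.8%) had no count in either library, beside 65.2% of all genes. The median member stood at 0 CPM, as did the median microRNA gene. The 10 detected members held 99.9% of the family's counts in replicate 1 and 99.8% in replicate 2. For a member with no count, the limit that 3 counts set was 0.651 CPM (replicate 1) or 0.724 CPM (replicate 2), which holds only for reads with a single alignment and for counting error. In whole tissue, fewer cells of a type and less RNA per cell cannot be told apart.

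Libraries and tissue were checked as follows. The libraries had 9001596 reads (replicate 1) and 8387546 reads (replicate 2), and 4608816 and 4144385 of these were placed on a microRNA gene's own strand. Reads with several alignments made up 31.8% and 32.6% of all reads and were given to no gene. They numbered 146 times the family's counts in replicate 1 and 148 times in replicate 2, and how many of them came from family members was not measured. Limb microRNAs were present, from Mir206 of skeletal muscle (5226 ± 1152 CPM) to Mir140 of cartilage (57289 ± 2418 CPM), with Mir203, Mir196b and Mir10b between them. Markers of other organs ranged from 0 CPM for Mir9-2 to 9.90 ± 5.11 CPM for the liver microRNA Mir122, with Mir9-3, Mir208a and Mir216a between them, and Mir9-1 was not analysed here. The Mir9 genes share sequence with each other and lose such reads, so their values are no check on neural tissue. For scale, 8 of the microRNAs of other imprinted loci ran from 125 ± 1.15 CPM (Mir675 in H19) to 12133 ± 1471 CPM (Mir127), and Mir335 in Mest stood at 76729 ± 4126 CPM. These are levels of single genes, while the family level is a sum over 69 genes. Their precursors shared no 22-nucleotide stretch with another annotated microRNA precursor, whereas 67 of the 69 members did. The parts of reads lost to several alignments may thus differ.

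The 4 name groups differed widely in counted level. The 17 genes of the Mir467 group summed to 3318 and 3493 CPM in replicates 1 and 2, with a mean of 3405 ± 124 CPM, or 78.0% of the family's counts. The 21 genes of the Mir669 group summed to 925 and 950 CPM, with a mean of 937 ± 17.5 CPM, or 21.5% of the counts. The 25 genes of the Mir466 group, the largest by number, summed to only 16.7 and 20.3 CPM, and the 6 genes of the Mir297 group to 2.82 and 4.58 CPM. Both libraries gave the same order. The Mir467 group stood 3.63 ± 0.0646 times above the Mir669 group, the Mir669 group 51.1 ± 6.02 times above the Mir466 group, and the Mir466 group 5.17 ± 1.06 times above the Mir297 group. Each ratio was above 1 in both libraries by more than its SD, though 2 libraries are too few for a test. These sums leave out reads with several alignments, and how such reads would change the ratios or the order was not tested. Number of genes and counted level did not run together. Detected genes were 1 of 25 in the Mir466 group (4%) and 1 of 6 in the Mir297 group (16.7%). They were 3 of 17 in the Mir467 group (17.6%) and 5 of 21 in the Mir669 group (23.8%). Over all microRNA genes the share was 16.9%, near those of the Mir297 and Mir467 groups.

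**Figure D1:**
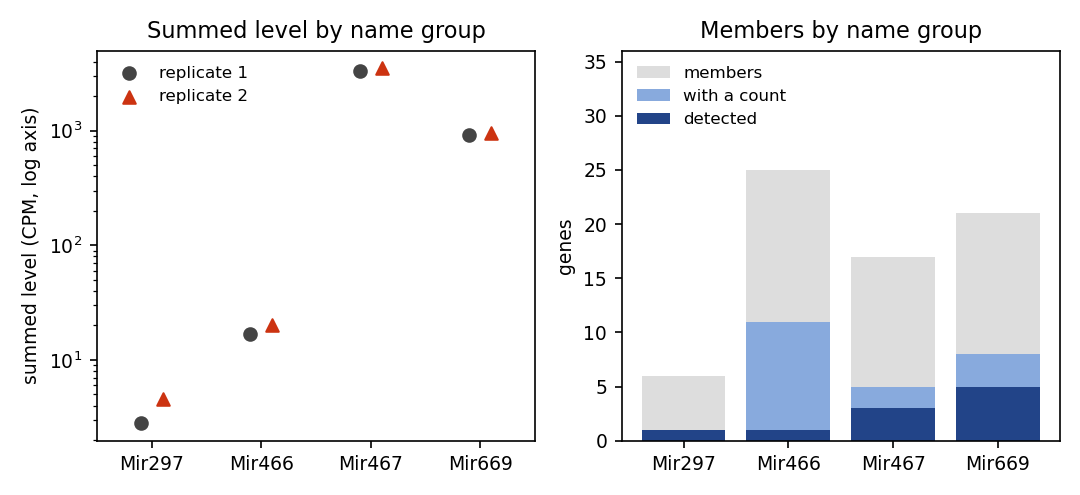
Left, summed level of each name group in CPM on a log axis, with 1 point per library. Right, the number of genes in each group, with those holding at least 1 count and those detected drawn over the total; Mir466 has the most genes (25) and 1 detected, while Mir467 has the highest level with 3 detected of 17.

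In the Mir467 group nearly all counted reads came from 3 genes, which together gave 78.0% of the counts of the whole family. Mir467e had 6589 and 6431 counts in replicates 1 and 2, or 1430 and 1552 CPM, with a mean of 1491 ± 86.3 CPM. It ranked 89 of all 1973 microRNA genes and lies on the plus strand of chromosome 2 from 10505721 to 10505807. Mir467d had 5260 and 4872 counts, or 1141 and 1176 CPM, with a mean of 1158 ± 24.2 CPM, and lies next in the array from 10507630 to 10507714. Mir467c had 3440 and 3168 counts, or 746 and 764 CPM, with a mean of 755 ± 12.7 CPM, and lies from 10473931 to 10474027. The libraries of these 3 genes did not overlap with one another, and the order from Mir467e through Mir467d to Mir467c was the same in both. In counted reads, Mir467e stood 1.29 ± 0.0476 times above Mir467d, and Mir467d 1.53 ± 0.00623 times above Mir467c. Of the 22-nucleotide stretches of their precursors, 59.1% (Mir467e), 39.1% (Mir467d) and 63.2% (Mir467c) were found in no other annotated microRNA precursor. The parts of their reads lost to several alignments may thus differ, so the order of full levels was not settled. The other members of the group had counts near 0. Mir467b had 1 and 4 counts. The 10 genes named Mir467a held 0 counts in replicate 1 and 2 in replicate 2, both at Mir467a-1. Every 22-nucleotide stretch of the Mir467a precursors recurred in another annotated microRNA precursor. Reads with several alignments were given to no gene, so these counts do not show how far the Mir467a copies were expressed. The 3 copies outside the intron, Mir467f, Mir467g and Mir467h, held no count.

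In the Mir669 group a pair of genes led with levels that could not be ordered. Mir669l had 1712 and 1658 counts, or 371 and 400 CPM, with a mean of 386 ± 20.2 CPM. Mir669o had 1807 and 1543 counts, or 392 and 372 CPM, with a mean of 382 ± 14.0 CPM. Mir669o was the higher in replicate 1 and Mir669l in replicate 2. Mir669c followed with 628 and 631 counts, or 136 and 152 CPM, and a mean of 144 ± 11.3 CPM, below Mir669o in both libraries by 2.66 ± 0.306 times. Mir669e, with 86 and 81 counts, stood at 18.7 and 19.5 CPM, and Mir669h, with 17 and 14 counts, at 3.69 and 3.38 CPM. Mir669f had 11 and 7 counts and missed the rule for detection in replicate 2. The 3 genes named Mir669a that had a row in the tables together held 1 and 2 counts, and Mir669n, the copy outside the intron, held none.

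In the Mir466 and Mir297 groups detected genes were few and low. Mir466n had 62 and 63 counts, or 13.5 and 15.2 CPM, with a mean of 14.3 ± 1.24 CPM. It stood below Mir669e in both libraries, by 1.34 ± 0.0717 times, but the counting intervals of the 2 genes overlapped (95% exact Poisson, 11.7 to 19.4 against 15.5 to 24.3 CPM in replicate 2). Mir466h had the next mean of its group with 6 and 3 counts, or 1.30 and 0.724 CPM, but in replicate 2 it lay below Mir466b-3 (1 and 6 counts) and Mir466 (3 and 5 counts), so the order below Mir466n was not resolved. Mir297a-2 was the only Mir297 gene with a read, at 13 and 19 counts, or 2.82 and 4.58 CPM. Mir297a-2 and Mir669h changed places between the libraries, so the order at the lower end was not resolved.

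**Figure D2:**
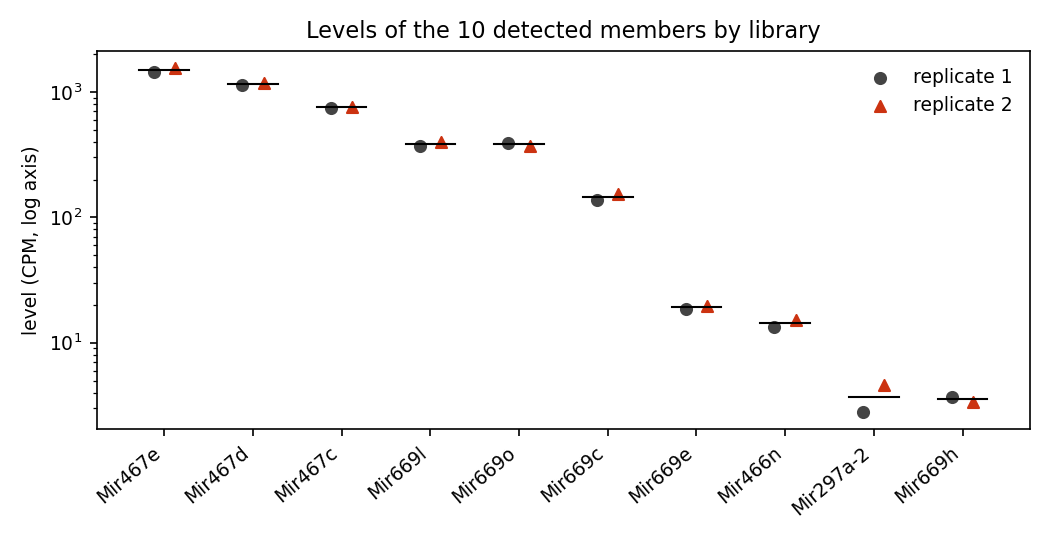
Level of each of the 10 detected members in CPM on a log axis, with a circle for replicate 1, a triangle for replicate 2 and a bar at their mean. Levels fall from 1491 CPM at Mir467e to 3.53 CPM at Mir669h, and the symbols of the libraries lie close together except at Mir297a-2.

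Inside and outside copies were compared next. The 59 copies inside the intron held 19642 of 19643 family counts in replicate 1 and all 18516 in replicate 2. The 10 copies outside held 1 and 0 counts, or 0.00509% of the family in replicate 1 (95% exact binomial interval 0.000129 to 0.0284%) and, in replicate 2, a share of at most 0.0199% by the same interval. The 1 read lay at Mir466q, in an intron of the kinase gene Tnik on chromosome 3. The other 9 outside copies lay in no annotated gene on their own strand, though 5 of them lay opposite one, among them Mir467f opposite Fxr2 and Mir466i opposite Cdk13. Detection was 10 of 59 inside (16.9%) and 0 of 10 outside, against the same 16.9% over all microRNA genes, so the share of detected genes inside equalled the background. No member had an opposite-strand read in either library, where 155134 and 129462 opposite-strand reads were placed on other microRNA genes. The share of all microRNA genes without such a read was not computed, so this is not shown to be particular to the family.

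All 59 inside copies lay on the strand of Sfmbt2 and within a single intron of it, from 10461473 to 10523944, which is intron 10 or 11 depending on the annotated transcript. The array ran over 51.6 kb from 10466663 to 10518279, with a median of 417 bp from the start of a member to that of the next. Almost all of its counted reads came from both ends. The first 13 copies, up to and including Mir467c, held 5264 and 4935 counts with 4 detected. The last 20 copies, from Mir467e on, held 14375 and 13567 counts with 6 detected. The 26 copies between them held 3 and 14 counts with none detected. Most of the middle copies share every stretch of 22 nucleotides with other annotated microRNA precursors. Reads with several alignments were given to no gene, so the counts do not show how many reads the middle copies gave. This division of the array was made after the counts were seen and is a description. Mir467 copies in the array recurred at an even pitch: 11 of the 13 spacings between neighbouring Mir467 genes were 2413 to 2470 bp, with a median of 2450 bp. Mir467c stood at the first of these steps and Mir467e at the last. The Mir467 genes with many counted reads thus flanked a row of Mir467a and Mir467b copies with almost none counted.

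**Figure D3:**
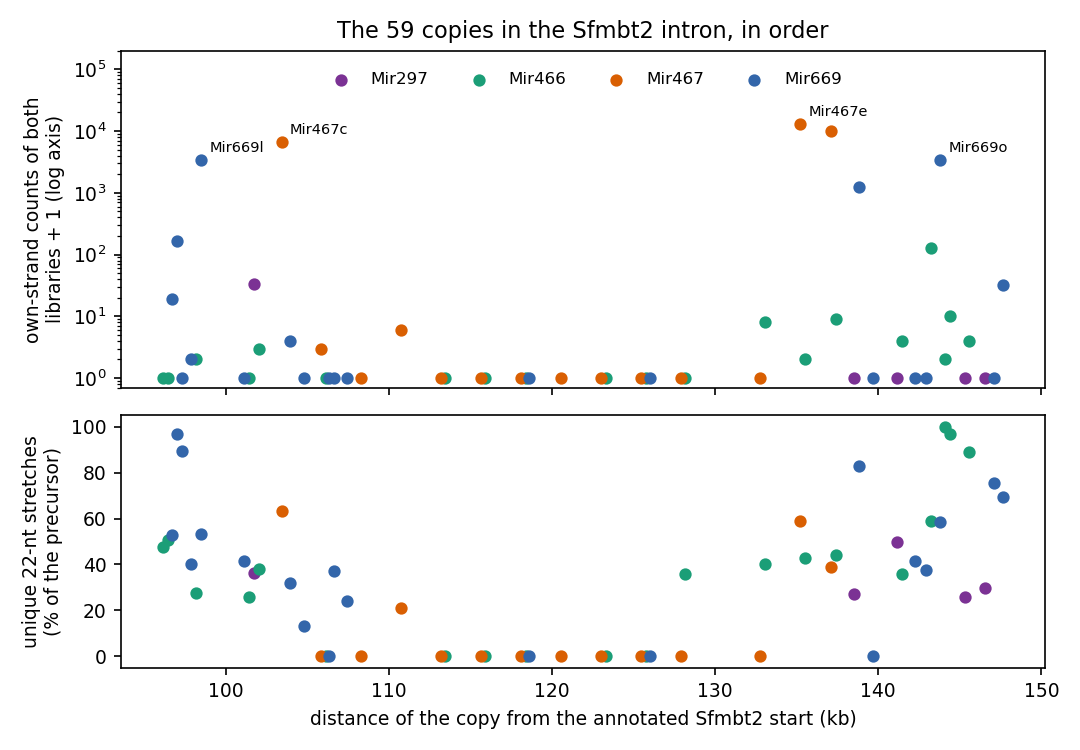
The 59 copies in the Sfmbt2 intron by distance from the annotated start of Sfmbt2 in kb, coloured by name group. Above, own-strand counts of both libraries plus 1 on a log axis; below, the percentage of 22-nucleotide stretches of the precursor found in no other annotated microRNA precursor. Most copies in the middle of the array have no count and no unique stretch, and the leading genes lie towards its ends.

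How far each copy can be told from the others was measured on the annotated precursors. For each precursor, the percentage of its stretches of 22 nucleotides found in no other microRNA precursor of the annotation was computed, called here its unique share. Repeats elsewhere in the genome were not searched, so a unique share is an upper limit. It covers the whole precursor and does not show whether the mature arms are unique. At least 1 stretch was shared by 67 of 69 members, against 871 of 1894 annotated microRNA genes in the tables, and the median unique share was 38.1% for members and 100% for all. Of the members, 17 had a precursor identical to another one, and the largest such set among members held 6 copies, all named Mir467a. Inside the intron the nearest other member was 92.9% identical in the median, by edit distance over the longer precursor. Outside it was 65.1%, so the outside copies were the more distinct ones.

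Counts were near 0 where the unique share was 0. The counting rule largely fixed this in advance, since reads with several alignments were given to no gene. The 20 members with no unique stretch, all inside the intron, held 0 and 2 counts and none was detected, where 0.394% of all annotated microRNA genes of that class were detected. In the class with a unique share above 0 and under 50%, 2 of 25 members were detected, Mir467d (39.1%) and Mir297a-2 (36.2%), against 0.763% of all genes of the class. These 2 members were the only detected genes of that class in the tables. In the class of 50% or more, 8 of 24 members were detected, against 23.9% of all genes of the class. That class split by position, with 8 of 16 detected inside the intron and 0 of 8 outside. No test of these shares was made, since copies of 1 array are not independent and the classes were chosen after the counts were seen.

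A high unique share did not by itself go with reads. Inside the intron, Mir466g had a unique share of 100% and 1 and 0 counts. Mir669b had 89.5% and no count, and Mir669i had 75.5% and no count. Mir466l had 89.0% with 1 and 2 counts, and Mir466h 96.7% with 6 and 3. Conversely Mir467e, the highest member, had a unique share of 59.1%, and Mir467c 63.2%. Outside the intron, Mir669n (100%), Mir466f-4 (92.0%), Mir466j (91.1%) and Mir467f (90.9%) had no read in either library. The part that reads with several alignments would add to any of these genes was not tested.

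**Figure D4:**
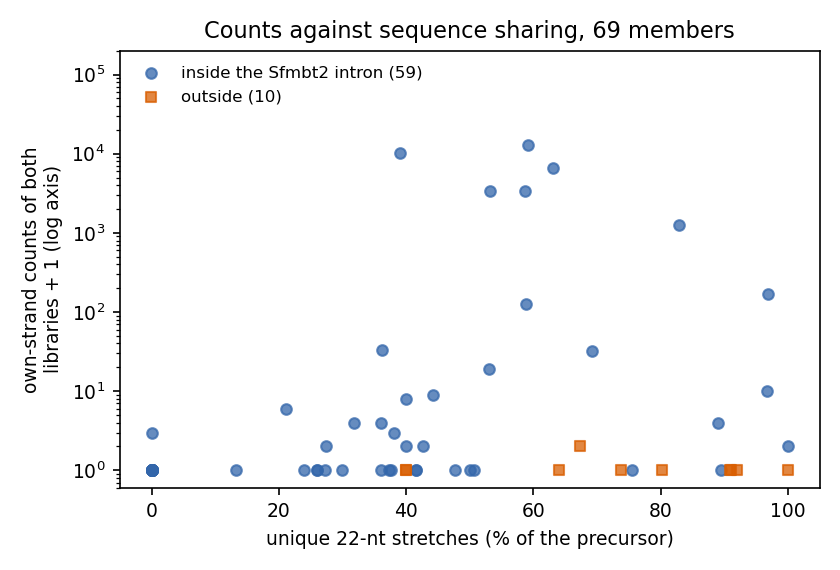
Own-strand counts of both libraries plus 1 (log axis) against the unique share of the precursor in percent, for the 59 copies inside the Sfmbt2 intron (circles) and the 10 outside (squares). Members without a unique stretch lie at or near the bottom, and the outside copies do so at every unique share.

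The libraries were compared last, to show how far levels of members differed within the group. Of 407 microRNA genes with at least 10 counts in total, 13.3% differed at least 1.5-fold between the libraries, and of the 11 members among them 1 did. That member was Mir297a-2, higher in replicate 2 by 1.63-fold, as were 8.11% of all tested genes by the same rule. Its 95% exact binomial interval of 0.762 to 3.58 included 1, so the difference was within counting error. With no count minimum, 15 of 25 members and 39.9% of all genes with a count passed the same fold, the members so added having at most 6 counts in a library. The 6 members above 100 CPM had ratios of replicate 2 to replicate 1 from 0.950 (Mir669o) to 1.12 (Mir669c). That of Mir467e was 1.09 (interval 1.05 to 1.12) with scaling to the library sum. The SD of Mir467e over the libraries was 86.3 CPM so scaled, 41.0 CPM with TMM and 33.8 CPM with DESeq2 size factors. Intervals under the other scalings were not computed. The ratio was above 1 for 8 of 11 members and for 232 of the 407 tested genes (57.0%), with a median log2 ratio of 0.07 for the members and 0.04 for all. These counts move with the scaling, which shifts all genes alike: members and tested genes above 1 numbered 6 and 184 with TMM, and 5 and 172 with DESeq2 size factors. With 1 library on each side, these ratios compare the 2 libraries and carry no replicate check.

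**Figure D5:**
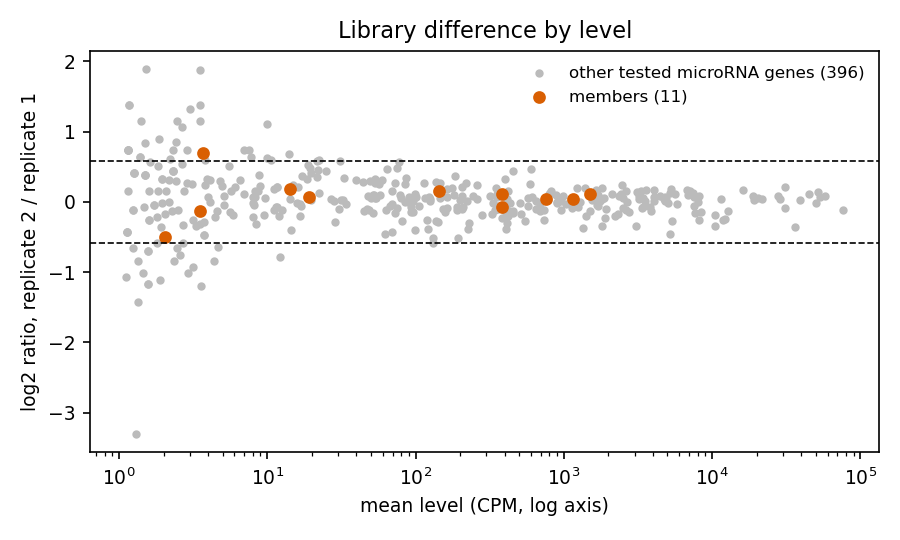
Log2 ratio of replicate 2 to replicate 1 against mean level in CPM (log axis) for the 407 tested microRNA genes, with the 11 members in orange and dashed lines at 1.5-fold. Of the members, Mir297a-2 lies past a line, at a low level where other genes scatter too.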

How the data were processed

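Small RNA of 2 limb samples was sequenced. Each gene's value in the deposited tables was a raw read count without normalization. Per the deposited read-me texts, reads were aligned to mm10 and counted on GENCODE M4; the aligner and counter are not given in the sources used here. The 3 columns of counts were taken from their values as either strand, own strand and opposite strand. Own-strand counts were used. Tally rows for reads without a gene, 48.8% and 50.6% of all reads, were left out of totals.

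Names, positions and precursors came from GENCODE M21 by gene identifier, which matched 1894 of 1973 genes. A further 12 M21 genes with these name stems had no matching row and were not analysed here. CPM used the sum of own-strand gene counts. No count model was fitted, because 1 group of 2 libraries leaves no contrast, and no p-value was computed. Intervals are 95% exact Poisson for levels and exact binomial for shares and ratios. No molecular identifiers are recorded, so they cover counting error only. Scaling alternatives used edgeR 4.0.16 (TMM) and DESeq2 1.42.0 (size factors) in R 4.3.3; the rest used scipy 1.17.1, pandas 2.3.3, numpy 2.4.6 and matplotlib 3.10.9 in Python 3.11.15. Code was tested on simulated data.

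The members, lists and comparisons were chosen with earlier results of these data known. Named genes were the detected members, the 2 highest of each name group and of the inside and outside copies, and the checked lists; others were picked once their values were known. The comparison list of imprinted microRNAs also held Mir136, which was not analysed here, and Mir483, Mir296, Mir298, Mir431, Mir433 and Mir434. Alternatives were other totals and scalings, either-strand counts, count minimums, intron bounds, members by unique share (added after seeing the data) and each library alone.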

Additional observations from a re-analysis of the deposited data

How the results depend on the processing

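With a total that included reads of several alignments, the family summed to 2660 CPM, the Mir467 group to 2075, the Mir669 group to 571, the Mir466 group to 11.3 and the Mir297 group to 2.25, which changes the total alone and no order. With either-strand counts the Mir669 group stood at 908 CPM, which again changes the total alone, since no member had an opposite-strand read. Members with a unique share of at least 50% summed to 3199 CPM, fewer genes being summed. Counting members with at least 1 count in either library gave 25 in place of 10, and 15 of 25 differed at least 1.5-fold between the libraries with no count minimum, in place of 1 of 11. Of all genes with a count, 39.9% did so. The count of detected members was 13 with at least 3 counts and 8 with at least 30. Each library alone gave 4262 to 4468 CPM for the family and 10 to 11 detected members. The share of counts inside the intron was at least 99.9% in all 6 alternatives run. Either-strand counts and the Sfmbt2 gene bounds could not change it, since members had no opposite-strand read and the bounds hold the same copies. The outside copies held 1 count in replicate 1 and 0 in replicate 2, so the other alternatives could hardly move it. Of 48 values of the 12 named members under alternatives that keep both libraries, 12 moved by more than the SD, 10 with the larger total and 2 with either-strand counts. The planned restriction to members with a unique mature arm was not run, since mature sequences covered 8 members. No paired analysis was possible because there was 1 group. Depth limits members under 3 counts, 0.651 and 0.724 CPM, and reads placed on several copies are missing from all values.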

Other observations

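Sfmbt2 also holds 48 other annotated microRNA genes on its strand whose names carry none of the 4 stems, all predicted genes without a microRNA number. They held 8 counts in replicate 1 and 7 in replicate 2, and none reached the detection rule. Of the 59 named copies inside the intron 10 did, a share of 16.9% that equals the 16.9% of all microRNA genes. Reads fell on 4 of them. Gm22239 had 4 and 6 counts, Gm22925 had 2 and 1, and Gm22678 and Gm24806 had 1 count each, in replicate 1. Of the 48, 22 had no unique stretch, a class in which 0.394% of all annotated microRNA genes were detected. These genes were described after their values were seen.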
